A study of Mus musculus with 16 samples.

Results

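Interferon-stimulated genes are the genes that a cell switches on when interferon binds its receptor, and 41 of them were followed here through the cerebellum of mice with and without *Atm*. They were taken from a list of well-known genes of this response, and a gene was measured by every probe, controls left out, whose transcript accession belongs to it. Of the 41 genes, 39 had a probe on the array. In 38 the signal was well above background throughout the 4 arrays of 1 group or more, a condition met by 16737 named genes in all. No probe was matched to *Mx1* or *Mx2*, and *Oas3* was well above background on 1 of 16 arrays and was not analysed further. Of the 38 measured genes, 37 were well above background on all 16 arrays and *Zbp1* on 15, so no gene was kept through 1 group alone.

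Type I interferons are secreted by a cell that senses foreign or misplaced nucleic acid, and bind a receptor on the same or neighbouring cells. The receptor's kinases phosphorylate STAT2, which joins IRF9 in a complex that binds a short motif in the promoters of the stimulated genes. The products bind or degrade viral RNA, block entry or budding, tag proteins with ISG15, sense more nucleic acid and amplify the response. In the healthy brain these genes are mostly low, and microglia, astrocytes, vessel cells and neurons can all express them. Loss of the DNA damage kinase ATM is known to leave DNA fragments in the cytoplasm, where the cGAS-STING pathway can sense them and induce interferon, and the arrays ask how the transcripts of this response stood in *Atm-/-* cerebellum and under NR.

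The study compared *Atm-/-* mice with their wild-type (WT) littermates of the strain B6;129S4-Atmtm1Bal/J. Mice drank water with nicotinamide riboside (NR), a precursor of NAD, at 3.5 mg/ml (12 mM), or water alone (veh), for 2 months from 6 weeks of age, and RNA was taken from the cerebellar cortex at a labelled age of 3.5 months. The mice given water alone (WT veh and *Atm-/-* veh) and those given NR (WT NR and *Atm-/-* NR) gave 4 arrays of 1 colour in each group, labelled as separate samples. The p-values measure the spread between these samples. The *Atm* mutation is carried by every cell of the mouse, and in this bulk tissue fewer cells of a type and less RNA per cell cannot be told apart.

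Values are log2 probe signals after quantile normalisation over the 16 arrays, listed in the order of replicates 1 to 4. They can be compared between arrays for 1 gene, but not between genes. *Pcp2* and *Calb1* of Purkinje cells and *Gabra6* and *Cbln1* of granule cells were bright on all 16 arrays (lowest values 17.84, 16.63, 14.85 and 17.02). The brighter *Atm* probe was lower in *Atm-/-* veh than in WT veh without reaching the threshold (log2 change -0.35, SE 0.11, limma adjusted p = 0.221), and a dimmer probe was lower by a larger amount (-0.87, SE 0.083, limma adjusted p = 3.17e-04). In *Atm-/-* NR against WT NR the brighter probe differed by -0.12 (SE 0.11, limma adjusted p = 1), with *Atm-/-* NR 2 at 9.23 above every WT NR value (8.88 to 9.02), and the dimmer probe was lower (-0.76, SE 0.083, limma adjusted p = 0.00135). The genotypes were hybridised on separate slides, which makes slide and genotype effects impossible to tell apart, and the veh and NR arrays filled different rows of each slide. The labels call all mice male, yet 0 of 6 Y-linked probes were well above background on *Atm-/-* veh 3, *Atm-/-* NR 4, WT NR 1 and WT NR 4. On WT veh 4, 6 measured genes of the choroid plexus stood on average 4.52 log2 units above their means of 16 arrays.

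Most of the 38 genes stood high together on 1 array, *Atm-/-* veh 3, and not on the other 3 arrays of its group. On that array 32 of the 38 genes had their highest value of all 16 arrays, where 9% of all named genes did, and 37 had the highest value of their group, where 26.5% did. Its signal stood over 1 log2 unit, or over 2-fold, above the mean of the other 3 *Atm-/-* veh arrays for 27 of the 38 genes, against 2.93% of all named genes, and it stood above that mean for all 38. The median excess was 1.49 log2 units, and the median over all named genes was -0.021. Of the other 15 arrays, the next highest count of genes over 1 log2 unit above the rest of the group was 4 of 38, on WT NR 4, followed by 3 on WT veh 4. Within *Atm-/-* veh, the median standard deviation of the 38 genes was 0.75 log2 units with this array (n = 4) and 0.17 without it (n = 3). It was 0.16 in *Atm-/-* NR, 0.24 in WT veh and 0.27 in WT NR. These are descriptions of 1 array, which has no replicate of its own.

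**Figure D1:**
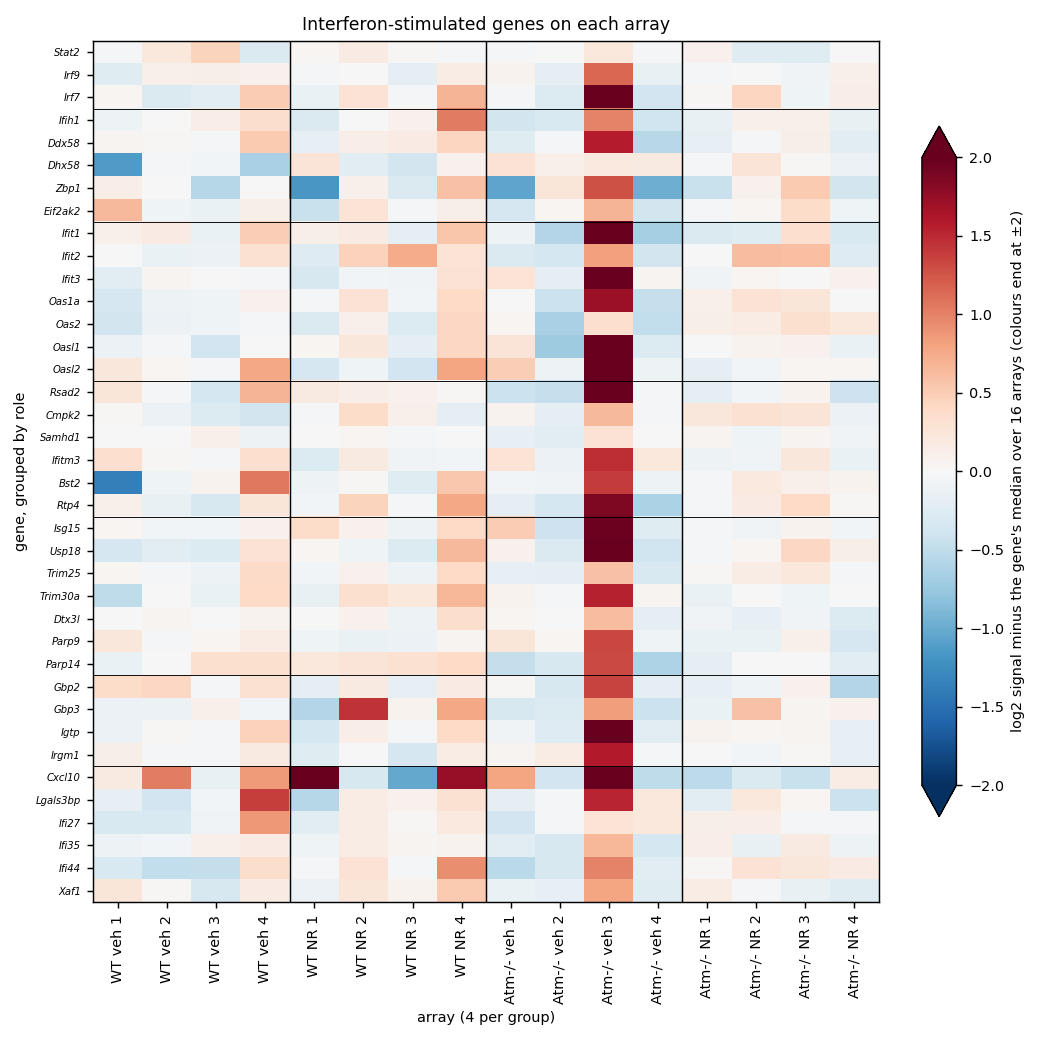
Heat map of the 38 measured interferon-stimulated genes (rows, in the 7 role groups that the text follows) on the 16 arrays (columns, 4 per group). Colour gives the log2 signal minus the gene's median over the 16 arrays, with colours ending at 2 log2 units either way. The column of *Atm-/-* veh 3 holds the highest value for 32 genes, and WT veh 4 and WT NR 4 are more faintly red.

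**Figure D2:**
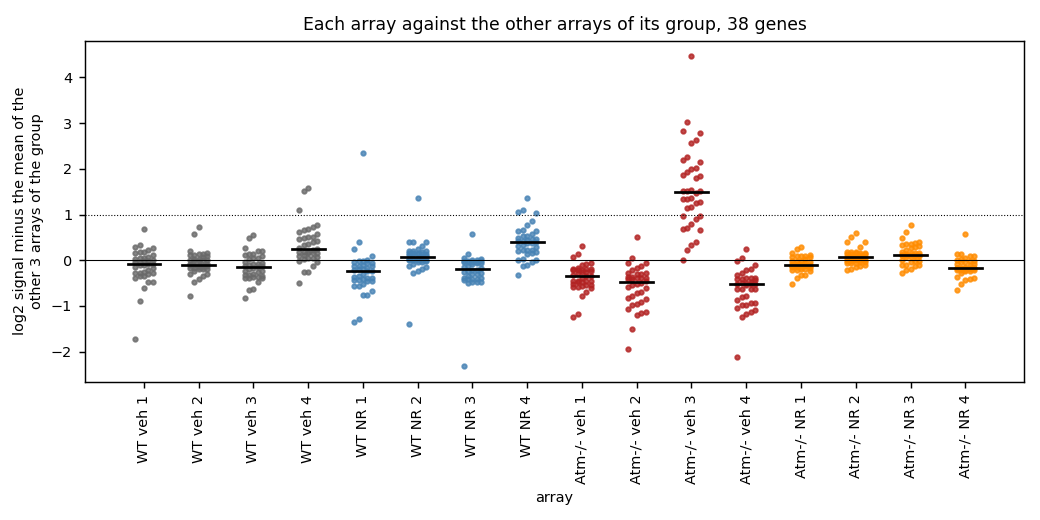
Log2 signal of each of the 38 genes on each array minus the mean of the other 3 arrays of its group. Points are genes, coloured by group, thick lines are medians over the 38 genes, and the dotted line marks 1 log2 unit. The median on *Atm-/-* veh 3 is 1.49, and the next highest is 0.39 on WT NR 4.

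Many of the genes hold a known motif of this response in their promoters. They were chosen as well-known genes of the response, so this describes the list and uses no array value. RefSeq sequences from 250 bases before to 50 bases after the transcription start (GRCm38.p6) were at hand for 31 of the 41 genes, in 35 windows. The core of the interferon-stimulated response element, to which the complex with STAT2 and IRF9 is known to bind, was searched on both strands as 2 copies of GAAA with any 2 bases between them. It was found for 18 of the 31 genes (58.1%), against 3.99% of all 27025 genes with such a window.

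Genes with and without the motif overlapped widely in how high they stood on *Atm-/-* veh 3. Among measured genes with a window, the excess over the other *Atm-/-* veh arrays had a median of 1.52 log2 units (range 0.23 to 4.46) for the 17 with a match of the response element and 1.15 (range 0.41 to 2.64) for the 13 without. The 4 genes with the largest excess among those with a window, and the 2 with the smallest, are shown for this reason. They are *Cxcl10* (chr5:92348840-92349139, minus strand), *Rsad2* (chr12:26456403-26456702, minus strand), *Ifit1* (chr19:34640639-34640938, plus strand), *Oasl1* (chr5:114922990-114923289, plus strand), *Stat2* (chr10:128270248-128270547, plus strand) and *Samhd1* (chr2:157135047-157135346, minus strand), each read 5′ to 3′ along its gene with matches of the response element in capitals. On the opposite strand a match reads as 2 copies of TTTC.
Cxcl10: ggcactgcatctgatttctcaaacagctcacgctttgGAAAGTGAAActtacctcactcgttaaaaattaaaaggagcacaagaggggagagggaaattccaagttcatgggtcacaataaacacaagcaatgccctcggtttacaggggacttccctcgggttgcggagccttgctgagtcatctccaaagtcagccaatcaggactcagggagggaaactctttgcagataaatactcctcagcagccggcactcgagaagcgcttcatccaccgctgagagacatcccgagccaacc
Rsad2: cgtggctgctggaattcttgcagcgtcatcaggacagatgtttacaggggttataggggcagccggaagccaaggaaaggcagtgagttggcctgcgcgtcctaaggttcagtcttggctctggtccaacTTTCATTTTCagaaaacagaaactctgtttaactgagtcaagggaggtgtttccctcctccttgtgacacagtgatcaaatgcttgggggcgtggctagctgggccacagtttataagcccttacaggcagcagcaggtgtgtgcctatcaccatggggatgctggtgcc
Ifit1: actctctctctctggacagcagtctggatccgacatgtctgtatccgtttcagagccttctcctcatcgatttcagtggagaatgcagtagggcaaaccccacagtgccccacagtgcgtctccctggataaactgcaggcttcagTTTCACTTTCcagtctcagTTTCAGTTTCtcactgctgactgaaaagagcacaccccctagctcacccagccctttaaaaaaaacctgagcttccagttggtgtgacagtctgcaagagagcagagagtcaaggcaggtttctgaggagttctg
Oasl1: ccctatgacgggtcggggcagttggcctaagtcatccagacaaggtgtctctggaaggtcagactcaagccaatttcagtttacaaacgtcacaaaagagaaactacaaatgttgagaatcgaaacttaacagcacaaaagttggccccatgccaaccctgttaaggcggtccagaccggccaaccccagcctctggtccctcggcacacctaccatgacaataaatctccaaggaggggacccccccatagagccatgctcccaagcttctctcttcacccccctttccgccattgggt
Stat2: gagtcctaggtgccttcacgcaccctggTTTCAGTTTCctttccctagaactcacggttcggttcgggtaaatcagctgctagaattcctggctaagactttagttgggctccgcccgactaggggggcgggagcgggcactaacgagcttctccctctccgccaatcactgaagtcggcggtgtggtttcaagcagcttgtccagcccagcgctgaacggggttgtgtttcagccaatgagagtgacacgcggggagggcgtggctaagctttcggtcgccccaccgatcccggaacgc
Samhd1: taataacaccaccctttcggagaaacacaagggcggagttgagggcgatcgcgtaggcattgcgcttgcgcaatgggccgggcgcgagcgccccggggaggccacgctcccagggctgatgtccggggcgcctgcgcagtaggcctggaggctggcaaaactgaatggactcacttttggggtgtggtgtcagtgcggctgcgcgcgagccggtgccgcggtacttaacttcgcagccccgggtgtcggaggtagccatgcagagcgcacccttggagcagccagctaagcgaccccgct
*Ifit1* holds 2 matches and *Cxcl10* and *Rsad2* hold 1 each. *Oasl1*, with an excess of 2.64, holds none in this window, while *Stat2*, with an excess of 0.23, holds 1. A match is a run of letters and not a measured binding site.

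The signalling factors come first in the response. *Irf7*, the transcription factor that amplifies interferon production, read 10.70, 10.37, 10.44 and 11.17 in WT veh, 10.54, 10.96, 10.64 and 11.35 in WT NR, 10.63, 10.39, 12.99 and 10.28 in *Atm-/-* veh, and 10.69, 11.09, 10.58 and 10.80 in *Atm-/-* NR. The value on *Atm-/-* veh 3 lay above all others, and a dimmer *Irf7* probe was also high there, at 8.34, but read 11.70 on WT NR 4 and 5.43 to 6.38 on the other 14 arrays. *Irf9*, the DNA-binding part of the STAT complex, read 12.15 on *Atm-/-* veh 3 and 10.75 to 11.15 on the other 15 arrays. Its second probe was highest on the same array. *Stat2*, the partner of *Irf9*, was highest in its group on *Atm-/-* veh 3 but not the highest of the 16 arrays there. It read 12.99, 13.23, 13.47 and 12.73 in WT veh, 13.05, 13.18, 13.03 and 12.97 in WT NR, 12.99, 13.01, 13.22 and 12.97 in *Atm-/-* veh, and 13.10, 12.78, 12.77 and 13.02 in *Atm-/-* NR, with its highest value in WT veh. Its dimmer probe read 6.84 on *Atm-/-* veh 3, below the 8.37 of *Atm-/-* NR 2.

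Of the 5 genes for sensors of viral nucleic acid, 3 were highest of all arrays on *Atm-/-* veh 3. *Ddx58*, which encodes the RNA sensor RIG-I, read 10.30 on *Atm-/-* veh 3 against 8.18 to 9.26 elsewhere. *Zbp1*, a sensor of Z-form nucleic acid, read 7.40 against 4.97 to 6.72. For *Ifih1*, which encodes the RNA sensor MDA5, the value on WT NR 4 was slightly higher (9.19 against 9.14). *Eif2ak2*, which encodes the kinase PKR, read 8.79 against 7.65 to 8.75, so that WT veh 1 came close to it.

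*Dhx58*, which encodes LGP2, the relative of RIG-I and MDA5 that tunes their signalling, differed from the rest. It read 7.14, 8.24, 8.21 and 7.62 in WT veh, 8.52, 8.06, 7.91 and 8.36 in WT NR, 8.55, 8.37, 8.47 and 8.44 in *Atm-/-* veh, and 8.23, 8.52, 8.29 and 8.16 in *Atm-/-* NR. The 4 *Atm-/-* veh values lay close together, *Atm-/-* veh 3 was not the highest of them, and all 4 lay above all 4 WT veh values. Its excess on *Atm-/-* veh 3 was 0.013 log2 units, the smallest of the 38 genes. The WT veh values were themselves spread, with WT veh 1 and WT veh 4 low.

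Among the RNA-binding and RNA-degrading effectors, the excess on *Atm-/-* veh 3 ran from 0.70 to 2.83 log2 units over 7 genes. *Ifit1*, whose product binds viral RNA caps, read 8.15, 8.21, 7.92 and 8.55 in WT veh, 8.17, 8.21, 7.86 and 8.60 in WT NR, 7.95, 7.45, 10.42 and 7.38 in *Atm-/-* veh, and 7.76, 7.81, 8.39 and 7.74 in *Atm-/-* NR. The value on *Atm-/-* veh 3 stood 7.12-fold above the mean of the rest of its group, and the other 3 arrays of that group lay below 3 of the 4 WT veh values. *Ifit2* and *Ifit3* lie next to each other in the genome, yet their excess differed, at 1.15 for *Ifit2* and 1.93 for *Ifit3*. *Ifit3* has a closely similar copy, *Ifit3b*, whose signal its probe may share.

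The 2′-5′ oligoadenylate synthetases activate RNase L on double-stranded RNA. *Oas1a* read 10.70 on *Atm-/-* veh 3 and 8.54 to 9.39 on the other arrays, and near copies of this gene may share its signal. *Oas2* read 6.88, 7.12, 7.16 and 7.21 in WT veh, 6.96, 7.34, 6.97 and 7.65 in WT NR, 7.28, 6.60, 7.57 and 6.75 in *Atm-/-* veh, and 7.36, 7.40, 7.57 and 7.46 in *Atm-/-* NR, so that WT NR 4 was above *Atm-/-* veh 3. The related *Oasl1*, a regulator of *Irf7* translation, read 7.40, 7.46, 7.12 and 7.51 in WT veh, 7.54, 7.73, 7.31 and 7.93 in WT NR, 7.76, 6.80, 9.90 and 7.23 in *Atm-/-* veh, and 7.51, 7.57, 7.60 and 7.38 in *Atm-/-* NR. Both *Oasl1* probes were highest on *Atm-/-* veh 3. *Oasl2* stood 2.14 log2 units above the other arrays of its group.

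*Rsad2* encodes viperin, which makes a chain-terminating nucleotide. It read 7.06, 6.78, 6.47 and 7.49 in WT veh, 7.00, 6.95, 6.90 and 6.84 in WT NR, 6.38, 6.36, 9.54 and 6.79 in *Atm-/-* veh, and 6.62, 6.77, 6.89 and 6.39 in *Atm-/-* NR, an excess of 3.03 log2 units or 8.16-fold. *Cmpk2*, its direct neighbour in the genome, supplies the nucleotide substrate, and its excess was 0.69. It read 11.42 on *Atm-/-* veh 3 and 10.40 to 11.14 on the other 15 arrays. Membrane proteins that block entry or budding stood between these, with an excess of 1.35 for *Ifitm3* and 1.47 for *Bst2*, which encodes tetherin. *Samhd1*, which depletes nucleotides, had the smallest excess among these antiviral genes, 0.41, though all 3 of its probes stood above the rest of the group on this array. *Rtp4*, an inhibitor of viral RNA replication, had an excess of 2.26.

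*Isg15*, the ubiquitin-like protein that names the group, read 10.92, 10.82, 10.82 and 10.97 in WT veh, 11.24, 10.96, 10.77 and 11.27 in WT NR, 11.39, 10.46, 12.84 and 10.63 in *Atm-/-* veh, and 10.84, 10.80, 10.95 and 10.81 in *Atm-/-* NR. The second highest value was on *Atm-/-* veh 1, and the other *Atm-/-* veh arrays were the lowest pair of all. *Usp18*, which removes ISG15 and dampens the interferon receptor, read 7.58, 7.70, 7.65 and 8.21 in WT veh, 7.95, 7.83, 7.65 and 8.57 in WT NR, 8.01, 7.63, 10.51 and 7.53 in *Atm-/-* veh, and 7.89, 7.97, 8.34 and 8.04 in *Atm-/-* NR. The ubiquitin ligase genes *Trim25*, *Trim30a* and *Dtx3l* were each highest on *Atm-/-* veh 3, with an excess of 0.80, 1.51 and 0.66 log2 units. *Parp9*, the partner of *Dtx3l* and its direct neighbour in the genome, read 8.73, 8.47, 8.55 and 8.65 in WT veh, 8.41, 8.37, 8.38 and 8.56 in WT NR, 8.74, 8.54, 9.83 and 8.42 in *Atm-/-* veh, and 8.37, 8.38, 8.61 and 8.17 in *Atm-/-* NR. *Parp14*, an ADP-ribosyltransferase, read 8.42, 8.53, 8.87 and 8.86 in WT veh, 8.76, 8.81, 8.85 and 8.94 in WT NR, 8.07, 8.23, 9.87 and 7.92 in *Atm-/-* veh, and 8.37, 8.55, 8.54 and 8.32 in *Atm-/-* NR. *Parp14* on *Atm-/-* veh 3 was the highest of the 16 arrays, while the other 3 *Atm-/-* veh values were the lowest 3 of all.

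The interferon-inducible GTPases attack the membranes of intracellular pathogens. *Igtp* and *Irgm1* were highest on *Atm-/-* veh 3, at 12.30 against 9.95 to 10.76 and 11.54 against 9.61 to 10.14. All 3 *Irgm1* probes were highest on that array. *Gbp2* was also highest there, with an excess of 1.52. *Gbp3* read 9.66, 9.65, 9.87 and 9.72 in WT veh, 9.19, 11.22, 9.84 and 10.55 in WT NR, 9.46, 9.49, 10.60 and 9.33 in *Atm-/-* veh, and 9.63, 10.36, 9.82 and 9.85 in *Atm-/-* NR, so that WT NR 2 was higher than *Atm-/-* veh 3 and WT NR 4 came close to it. Guanylate-binding proteins form a family of similar genes, and a probe may share signal among them.

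*Cxcl10*, a chemokine that draws T cells, showed the widest range. It read 7.73, 8.57, 7.40 and 8.39 in WT veh, 10.04, 7.23, 6.53 and 9.29 in WT NR, 8.33, 7.17, 11.97 and 7.03 in *Atm-/-* veh, and 7.02, 7.26, 7.11 and 7.69 in *Atm-/-* NR. The value on *Atm-/-* veh 3 stood 22-fold above the mean of the rest of its group, and WT NR 1 and WT NR 4 were the next highest. *Lgals3bp*, a secreted glycoprotein, read 12.67 on *Atm-/-* veh 3 and 12.53 on WT veh 4. *Ifi27* read 14.14 and 14.74 on the same arrays, so WT veh 4 was the higher for it. Of the remaining genes, *Ifi44* read 7.44 on *Atm-/-* veh 3 and 7.38 on WT NR 4, *Ifi35* had an excess of 0.96, and *Xaf1*, a promoter of apoptosis, had an excess of 0.97.

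**Figure D3:**
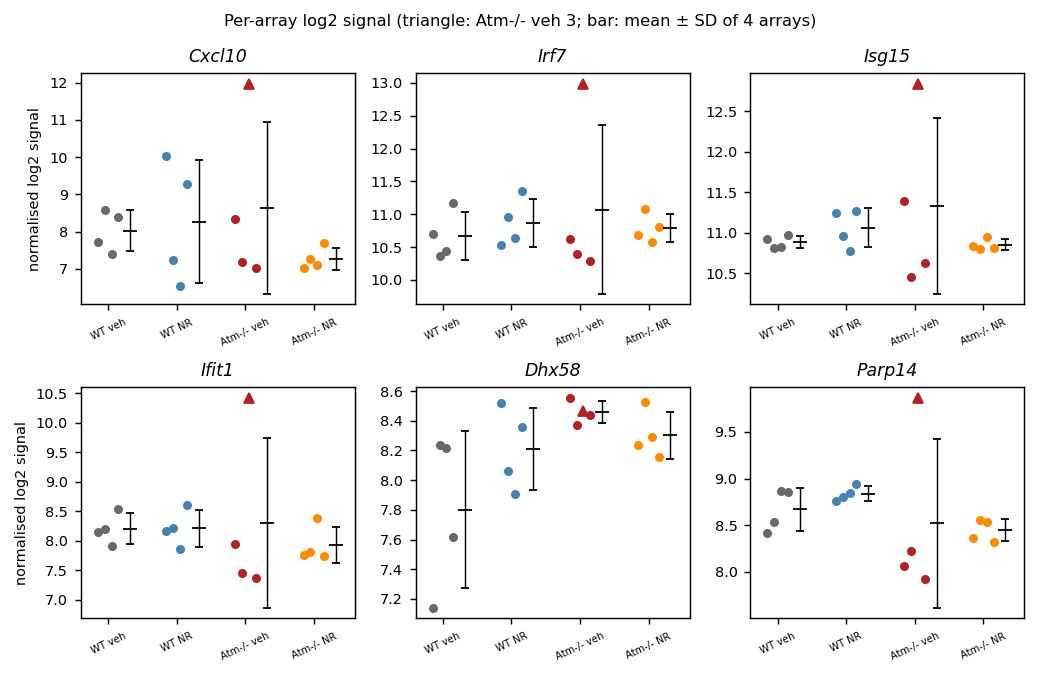
Normalised log2 signal of 6 genes on every array, by group. Points are arrays, triangles mark *Atm-/-* veh 3, and bars give the mean ± SD of 4 arrays. *Cxcl10*, *Irf7*, *Isg15*, *Ifit1* and *Parp14* have their highest value on *Atm-/-* veh 3, and *Dhx58* does not (8.47, below 8.55 on *Atm-/-* veh 1).

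Over the 38 genes, the mean deviation from each gene's mean of 16 arrays was 1.31 log2 units on *Atm-/-* veh 3. It was 0.32 on WT NR 4, 0.19 on WT veh 4 and 0.071 on WT NR 2, and between -0.33 and 0.021 on the other 12 arrays. WT NR 4 gave the highest value of its group for 26 genes and WT veh 4 for 24. Of the 4 arrays without signal of Y-linked genes, *Atm-/-* veh 3 and WT NR 4 were at 1.31 and 0.32. WT NR 1 was at -0.16 and *Atm-/-* NR 4 at -0.19. A link between the missing signal and these genes was not tested.

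Genes upstream in the pathway mostly did not stand high on that array. Of 10 listed interferon genes, 4 met the condition on background, *Ifna2* and *Ifnl3* among them, and their excess ran from -0.21 to -0.076. *Ifnb1* and *Ifng* did not meet it. Interferon alpha genes are close copies of each other, so their probes may share signal. Over 9 genes for receptors and signalling proteins, the median excess was 0.10. Of 13 measured genes that induce interferon, such as *Cgas* and *Irf1*, none was highest there, with a median excess of 0.17. Of 11 negative regulators, 2 were highest there, among them *Socs3*, an inhibitor of the receptor's kinases, at 9.42 against 8.15 to 9.41. In *Atm-/-* veh against WT veh, limma called 0 of these 37 genes, where 0.0538% of all named genes were called. Among the larger changes were those of *Ifnar1*, a chain of the type I interferon receptor, at 0.86 (SE 0.27, limma adjusted p = 0.214), *Socs3*, at -0.33 (SE 0.26, limma adjusted p = 0.574), and *Cgas*, the DNA sensor, at -0.32 (SE 0.23, limma adjusted p = 0.538). In *Atm-/-* NR against *Atm-/-* veh, 1 of the 37 was called, lower, which was *Adar*, where 11.5% of all named genes were called. In WT NR against WT veh 0 were called, and 0% of all named genes.

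Markers of some other cell types also stood high on that array. All 5 measured red blood cell genes of 7 listed were highest on *Atm-/-* veh 3, with a mean deviation of 2.18 there and -0.61 to 0.20 on the other 15 arrays. *Alas2*, the first enzyme of haem synthesis in red cells, read 13.13 against 9.31 to 10.26. Of 10 measured microglia genes of 11 listed, 3 were highest on *Atm-/-* veh 3, and the mean deviation was 0.46 there, 0.62 on WT veh 4 and 0.20 on WT NR 4. Of 4 measured lymphocyte genes of 9 listed, *Cd3d* of T cells was highest there, at 7.42 against 4.41 to 5.74. Of 9 blood vessel genes, 4 were highest on *Atm-/-* veh 3, with a mean deviation of 0.28, the highest of the 16 arrays. Of 6 genes of astrocytes and Bergmann glia, 1 was highest there, *Gfap* of astrocytes, at 13.79 against 12.00 to 12.93, and the median excess of the 6 was 0.025 (-0.46 to 1.18). The mean deviation of Purkinje cell genes was -0.27 and that of granule cell genes -0.045. The part of these cell types in the interferon-stimulated genes was not tested.

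**Figure D4:**
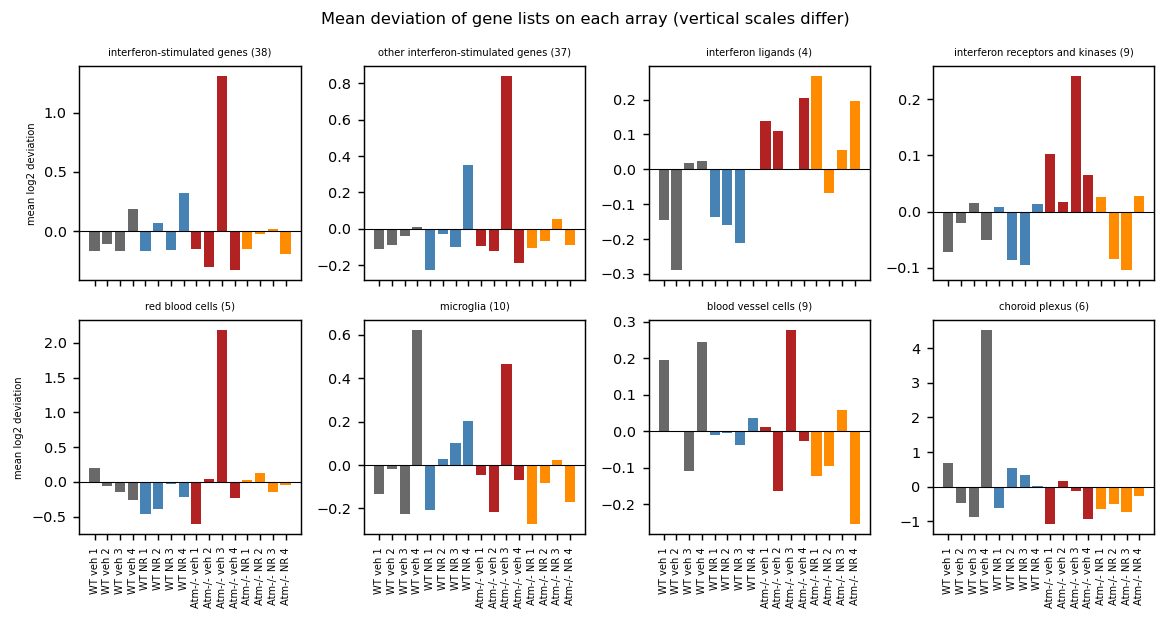
Mean over the genes of a list of the log2 signal minus each gene's mean of 16 arrays, for 8 lists (number of genes in brackets) on every array, with bars coloured by group and vertical scales that differ between panels. On *Atm-/-* veh 3 the bar is 1.31 for interferon-stimulated genes and 2.18 for red blood cell genes, and on WT veh 4 it is 4.52 for choroid plexus genes.

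The first comparison asks how the genes stood in *Atm-/-* veh against WT veh. No gene passed limma's test (adjusted p under 0.05), as against 0.0538% of all named genes, and the smallest adjusted p was 0.218. At an unadjusted p under 0.05, 1 gene was higher (background 7.1%) and 0 were lower (background 9.73%), and the methods' t-test on z-scores gave 0 before adjustment (background 13.3%) and 0 after it (background 0.00597%). By sign, 25 of 38 genes were higher and 13 lower, where 44.6% of all named genes were higher. The median log2 change was 0.21, and over all named genes it was -0.028.

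Without *Atm-/-* veh 3 that balance turned, since 6 genes were higher and 32 lower, where 45.7% of all named genes were higher, and the median log2 change was -0.20. The sign turned for 19 of 38 genes, against 9.85% of all named genes, counted in either direction. *Atm-/-* veh 3 stood above the rest of its group for all 38 genes, so leaving it out could only lower their changes. That every turn was from higher to lower was therefore fixed in advance. Counting also those that kept their sign but moved over 1.5 times, the change of 37 of 38 genes moved, against 40% of all named genes. The 5 that moved most were *Cxcl10* (from 0.61 to -0.51), *Rsad2* (from 0.32 to -0.44), *Ifit1* (from 0.096 to -0.61), *Usp18* (from 0.63 to -0.064) and *Oasl1* (from 0.55 to -0.11).

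*Dhx58* was the 1 gene whose difference moved by less than 1.5 times. Its log2 change in *Atm-/-* veh against WT veh was 0.66 (SE 0.21, limma adjusted p = 0.218), and 0.65 (SE 0.23, limma adjusted p = 0.321) without *Atm-/-* veh 3. Its groups did not overlap in either case, as for 3.9% and 6.21% of all named genes in that direction. It rested in part on WT veh 1, without which the change was 0.44. Beside *Dhx58*, the largest positive changes with all arrays were those of *Usp18*, at 0.63 (SE 0.50, limma adjusted p = 0.580), and *Cxcl10*, at 0.61 (SE 0.95, limma adjusted p = 0.798). The most negative were *Parp14*, at -0.15 (SE 0.31, limma adjusted p = 0.855), *Eif2ak2*, at -0.13 (SE 0.24, limma adjusted p = 0.830), and *Ifih1*, at -0.12 (SE 0.30, limma adjusted p = 0.884). For these 5 genes the groups overlapped.

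Without *Atm-/-* veh 3, the groups did not overlap for 6 genes that were lower in *Atm-/-* veh, namely *Parp14*, *Ifih1*, *Trim25*, *Ifi35*, *Ifit2* and *Gbp3*, or 6 of 38 against 7.87% of all named genes. None was called. *Parp14* had the smallest adjusted p, with a change of -0.60 (SE 0.12, limma adjusted p = 0.183). The other 5 ran from -0.45 for *Ifih1* to -0.29 for *Trim25*. At an unadjusted p under 0.05, 6 of 38 genes were lower (*Parp14*, *Ifi35*, *Ifit1*, *Gbp2*, *Ddx58* and *Rsad2*), against 8.42% of all named genes, and 1, *Dhx58*, was higher, against 6.67%. The array left out was chosen with earlier results of these data known, and it stood above the rest of its group for all 38 genes. The shares over all named genes carry no such choice. These p-values and overlaps therefore describe the arrays that remain and test nothing further.

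**Figure D5:**
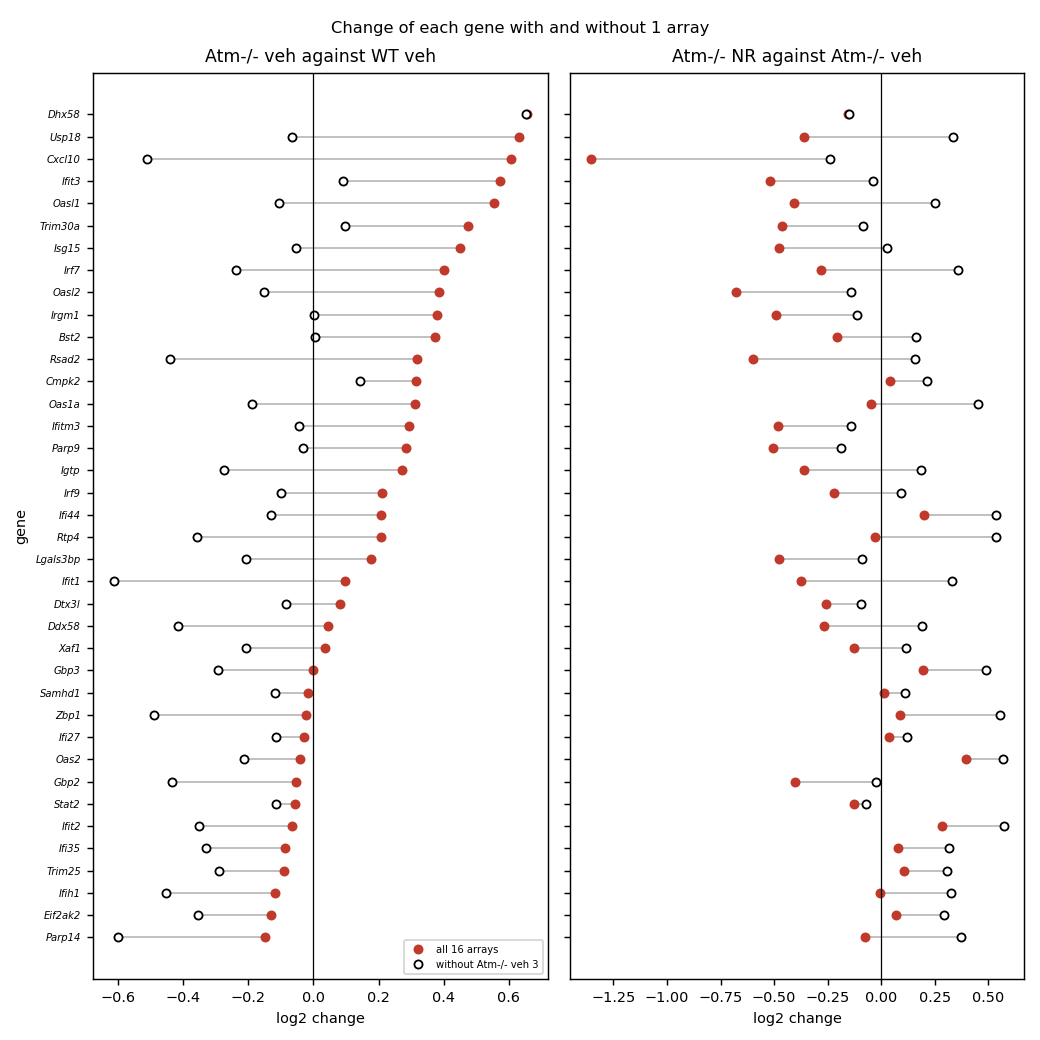
Log2 change of each of the 38 genes in 2 comparisons that share the *Atm-/-* veh arrays, with all 16 arrays (filled) and without *Atm-/-* veh 3 (open). The horizontal scales differ between panels. In the left panel 25 filled and 6 open points lie above 0, in the right panel 11 filled and 26 open ones, and *Dhx58* hardly moves in either.

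The second comparison asks how the genes stood in *Atm-/-* NR against *Atm-/-* veh. It shares the *Atm-/-* veh arrays with the first, so a high array pulls the values of both, in opposite directions. No gene of the 38 was called by limma, in a comparison in which 11.5% of all named genes were called, and the smallest adjusted p was 0.175. At an unadjusted p under 0.05, 0 genes were higher (background 17.5%) and 1 was lower (background 13%), and the methods' t-test gave 0 before adjustment (background 33.8%) and 0 after it (background 11.7%). By sign, 11 genes were higher and 27 lower, where 54.9% of all named genes were higher, with a median log2 change of -0.21.

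Without *Atm-/-* veh 3, 26 genes were higher and 12 lower, where 54.9% of all named genes were higher, and the median log2 change was 0.17. The sign turned for 15 genes, against 7.56% of all named genes, counted in either direction. All 15 turned from lower to higher, the only direction open, since the array left out stood above the rest of its group for all 38 genes. The change of 36 of 38 turned or moved over 1.5 times, against 33.3%. The changes of *Dhx58* (-0.16 and -0.15) and *Oas2* (0.40 and 0.57) stayed within 1.5 times. The groups then did not overlap for 10 genes that were higher in *Atm-/-* NR, which is 10 of 38 against 19.4% of all named genes. They were *Bst2*, *Parp14*, *Rtp4*, *Ifih1*, *Ifi35*, *Trim25*, *Gbp3*, *Ifi44*, *Ifit2* and *Oas2*. At an unadjusted p under 0.05, 8 genes were higher (*Oas2*, *Ifi35*, *Parp14*, *Oas1a*, *Rtp4*, *Ifit2*, *Trim25* and *Ifi44*), against 15.7%. None of the 38 was called, against 1359 of 16737 named genes, with a smallest limma adjusted p of 0.0802. Here too the array left out was chosen with earlier results known, so these p-values and overlaps are a description. The shares over all named genes carry no such choice.

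With all arrays, the most negative changes under NR in *Atm-/-* mice were those of *Cxcl10*, at -1.36 (SE 0.95, limma adjusted p = 0.378), *Oasl2*, at -0.68 (SE 0.43, limma adjusted p = 0.322), and *Rsad2*, at -0.60 (SE 0.53, limma adjusted p = 0.491). Without *Atm-/-* veh 3 they were -0.24, -0.14 and 0.16. *Parp9* had an unadjusted p of 0.0462 and a change of -0.50 (SE 0.23, limma adjusted p = 0.175), which was -0.19 (SE 0.11, limma adjusted p = 0.323) without that array. The largest positive changes were those of *Oas2*, at 0.40 (SE 0.20, limma adjusted p = 0.217), *Ifit2*, at 0.28 (SE 0.29, limma adjusted p = 0.555), and *Ifi44*, at 0.20 (SE 0.31, limma adjusted p = 0.715). Each was larger without the array, at 0.57, 0.57 and 0.54. *Ifit2* read 7.62, 7.47, 7.49 and 7.92 in WT veh, 7.35, 8.06, 8.35 and 7.88 in WT NR, 7.32, 7.26, 8.42 and 7.23 in *Atm-/-* veh, and 7.60, 8.22, 8.20 and 7.35 in *Atm-/-* NR. *Atm-/-* NR 2 and NR 3 were high for it, while NR 1 and NR 4 lay near the 3 low *Atm-/-* veh values.

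In WT NR against WT veh, limma called 0 of the 38 genes and 0% of all named genes. At an unadjusted p under 0.05, 0 were higher (background 4.03%) and 0 were lower (background 4.8%), and the methods' t-test gave 1 gene, *Parp9*, before adjustment (background 8.08%) and 0 after it (background 0%). By sign, 24 genes were higher and 14 lower, where 48.5% of all named genes were higher, and the median log2 change was 0.035. The largest positive changes were those of *Ifi44*, at 0.52 (SE 0.31, limma adjusted p = 0.740), *Gbp3*, at 0.48 (SE 0.37, limma adjusted p = 0.817), and *Dhx58*, at 0.41 (SE 0.21, limma adjusted p = 0.691). No groups of the 38 genes were free of overlap, against 1.71% of all named genes higher and 2.87% lower. *Ifi44* read 6.14, 5.95, 5.97 and 6.80 in WT veh, 6.42, 6.74, 6.42 and 7.38 in WT NR, 5.90, 6.14, 7.44 and 6.22 in *Atm-/-* veh, and 6.47, 6.73, 6.67 and 6.61 in *Atm-/-* NR. WT veh 4 and WT NR 4 were the high arrays of their groups for it, and the groups overlapped. *Atm-/-* veh 3 enters this comparison through the spread shared by all arrays. Without it the change of *Ifi44* was 0.52 (SE 0.22, limma adjusted p = 0.592), and 1 gene, *Ifi44*, was higher at an unadjusted p under 0.05 (background 4.07%) and 0 were lower (background 5.22%). *Gbp3* owed most of its change to WT NR 2, without which it was 0.14. The most negative changes were those of *Gbp2*, at -0.27 (SE 0.29, limma adjusted p = 0.885), *Oasl2*, at -0.25 (SE 0.43, limma adjusted p = 0.937), and *Ifitm3*, at -0.22 (SE 0.26, limma adjusted p = 0.893). Without WT veh 4, the change of *Oasl2* was -0.082. The median of the 38 genes was 0.18 without WT veh 4 and -0.019 without WT NR 4, the 2 arrays of these groups on which most genes were highest.

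In *Atm-/-* NR against WT NR, limma again called 0 of the 38 genes, against 0.0597% of all named genes. At an unadjusted p under 0.05, 0 were higher (background 2.62%) and 0 were lower (background 1.73%), and the methods' t-test gave 1 gene, *Parp14*, before adjustment (background 6.98%) and 0 after it (background 0.0239%). By sign, 14 genes were higher and 24 lower, where 52.8% of all named genes were higher, with a median of -0.059. *Parp14* was the 1 gene whose groups did not overlap, lower in *Atm-/-* NR, against 1.8% of all named genes (2.74% in the other direction). Its log2 change was -0.39 (SE 0.31, limma adjusted p = 1), and without *Atm-/-* veh 3, which enters through the shared spread, -0.39 (SE 0.11, limma adjusted p = 0.641). Without that array, 2 genes were lower at an unadjusted p under 0.05, *Parp14* and *Dtx3l* (background 1.92%), and 0 were higher (background 2.75%). All 4 *Atm-/-* NR values of *Parp14* and 3 of 4 *Atm-/-* veh values lay below every WT NR value.

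The difference between the effect of NR in *Atm-/-* and in WT mice was tested in the same model. Limma called 0 of the 38 genes and 0% of all named genes, and 0 of the 38 had an unadjusted p under 0.05 (background 3.91% higher and 2.05% lower). With all arrays the difference was negative for 31 of 38 genes, where 56.6% of all named genes were positive, with a median of -0.29. Without *Atm-/-* veh 3 it was positive for 27 of 38, with a median of 0.12. The sign turned for 20 genes, against 9.46% of all named genes, and 37 turned or moved over 1.5 times, against 39.2%. Leaving out this array could only raise the difference for the 38 genes, since it stood above the rest of its group for all of them.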

How the data were processed

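Cerebellar RNA was hybridised to 16 Agilent arrays, 4 in each group, with 1 colour (Cy3). The authors deposited, per the file headers, spot intensity from Feature Extraction 12.0.3.1 with local background subtracted and no normalisation between arrays. They also deposited z-scores, a score for each spot that follows quantile normalisation and scaling within each array, used as an alternative. Accessions matched 32994 of 56605 probes to RefSeq genes (GRCm38.p6). Probe coordinates refer to an older build and are not given.

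Control spots and outlier spots were left out. A probe was kept if its signal was well above background throughout the 4 arrays of 1 group or more (37253 probes), and log2 signals were quantile normalised. For each gene the brightest kept probe stands. The comparisons used limma 3.58.1 (R 4.3.3), fitted to the 4 group means of all 16 arrays (12 residual degrees of freedom), and Benjamini-Hochberg adjustment over all kept probes. The fit was tested on simulated data. The number of arrays limits the precision, and 34945 to 42559 probes per array were well above background.

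The excess of an array is its log2 signal minus the mean of the other 3 arrays of its group. Full statistics were given for genes with an unadjusted p under 0.05 or groups that do not overlap, and for the 3 largest changes each way in 3 comparisons; the 5 genes that moved most without *Atm-/-* veh 3 were also named, and genes of other lists were named where called or, per list, for the 2 largest changes. Other genes were named once their values were known. The members, the lists and the array *Atm-/-* veh 3 were chosen with earlier results of these data known. Alternatives were the 75th percentile, normexp (offset 50), z-scores, 2 other filters, other sets of arrays, blocks for replicate number and slide, array weights, the mean of a gene's probes, the methods' t-test and z-ratio rule, and each array left out. Promoter sequences are those of RefSeq, and a second promoter motif that was searched is not reported here.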

Additional observations from a re-analysis of the deposited data

Results flagged for a closer look

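In each group of 4 arrays, the gap between the highest or lowest array and its nearest neighbour was set against the whole range of the group (Dixon's ratio, against its 95% critical value for 4 samples). Chance alone passes about 1 in 20 groups, and between 5.05% and 7.07% of all named genes passed in each group. Of the 38 genes, 15 passed in *Atm-/-* veh, 2 in WT veh, 0 in WT NR and 2 in *Atm-/-* NR.

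All 15 in *Atm-/-* veh were for a high value on *Atm-/-* veh 3. The ratio was 0.962 for *Bst2*, 0.933 for *Trim30a*, 0.926 for *Ifih1* and 0.926 for *Ifit2*. It was 0.916 for *Igtp*, 0.894 for *Irgm1*, 0.892 for *Xaf1*, 0.876 for *Gbp3*, 0.873 for *Irf7*, 0.87 for *Ifi35* and 0.866 for *Rsad2*. It was 0.849 for *Trim25*, 0.844 for *Parp14*, 0.843 for *Stat2* and 0.839 for *Usp18*. Genes with a larger excess on this array, *Cxcl10* among them, did not pass where the other 3 arrays were spread. The array and the genes were chosen with earlier results of these data known. The genes also stood high together on that array, so the 15 passes are not independent of each other. Set against the chance rate, they describe this array and are no separate evidence that it stood high.

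The other 4 fell on 4 different arrays. *Ddx58* was high on WT veh 4 (0.842), *Irf9* low on WT veh 1 (0.914), *Ifit1* high on *Atm-/-* NR 3 (0.9) and *Igtp* low on *Atm-/-* NR 4 (0.872).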

How the results depend on the processing

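Limma called 0 of the 38 genes under every alternative run and with any 1 array left out. The methods' unadjusted t-test called 1 gene in WT NR against WT veh and 1 in *Atm-/-* NR against WT NR. Of the values of named genes, 209 kept their direction and 4 reversed under the alternatives other than leaving out 1 array, and 313 kept it and 7 reversed with 1 array left out. The number of arrays, 4 in a group, limits the precision.

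The 12 arrays with signal of Y-linked genes leave out *Atm-/-* veh 3. On them the median change of the 38 genes was -0.20 in *Atm-/-* veh against WT veh (6 genes higher), 0.24 in *Atm-/-* NR against *Atm-/-* veh (28 higher), -0.0062 in WT NR against WT veh and 0.18 for the difference between the NR effects. The changes of *Cxcl10* (-0.51) and *Usp18* (-0.064) in *Atm-/-* veh and of *Rsad2* under NR (0.25) reversed there. For *Atm-/-* veh against WT veh, these 12 arrays hold the same samples as leaving out *Atm-/-* veh 3 alone, so the changes are the same values and no separate check. Array weights gave WT veh 4 a weight of 0.29 and *Atm-/-* veh 3 one of 0.56, turned *Cxcl10* in *Atm-/-* veh to -0.020, and left 17 genes higher in *Atm-/-* NR against *Atm-/-* veh.

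With 1 array left out, the median ran from -0.20 to 0.36 in *Atm-/-* veh against WT veh (6 to 34 genes higher), from -0.34 to 0.17 in *Atm-/-* NR against *Atm-/-* veh (7 to 26 higher), from -0.019 to 0.18 in WT NR against WT veh, from -0.15 to 0.024 in *Atm-/-* NR against WT NR and from -0.43 to 0.12 for the difference. The low end of the first and the high ends of the second and last were without *Atm-/-* veh 3. Changes that reversed without 1 array were those of *Cxcl10* (-0.51 to 1.14), *Usp18* (-0.064 to 0.93), *Parp14* (-0.60 to 0.049), *Ifih1* (-0.45 to 0.0095) and *Eif2ak2* (-0.36 to 0.041) in *Atm-/-* veh, and of *Rsad2* under NR (-0.90 to 0.16).

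Over all probes, limma called 20 in *Atm-/-* veh against WT veh, 3366 in *Atm-/-* NR against *Atm-/-* veh, 0 in WT NR against WT veh, 20 in *Atm-/-* NR against WT NR and 0 for the difference. With 1 array left out these counts ran from 12 to 41, 862 to 4405, 0 to 1, 12 to 24 and 0 to 0. On the arrays with signal of Y-linked genes, 438 were called in the second comparison, 6 in the third, 10 in the fourth and 2 for the difference. With array weights, 246 were called in the first, 6799 in the second and 39 in the fourth. With the mean of a gene's probes, 1866 were called in the second, and with the arrays of the compared groups alone, 7 in the first. The methods' t-test called 4290, 10391, 2812 and 2359 in the first 4 before adjustment and 2, 3041, 0 and 10 after it, and their z-ratio rule called 717, 1443, 770 and 569.

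A fit that took replicate number as a replicate block called 15 probes in the first comparison and 3140 in the second, and no call on the 38 genes differed. The numbers share no animal, and 2 of 16 arrays correlated best with their own number, so they were not treated as pairs.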

Other observations

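A further 37 measured interferon-stimulated genes, of 44 listed, lie outside the 38. On *Atm-/-* veh 3, 26 of them had their highest value of 16 arrays, where 9% of all named genes did. Their median excess over the other *Atm-/-* veh arrays was 0.95 log2 units (range -0.17 to 2.56), against -0.021 over all named genes. The excess was over 1 log2 unit for 17 of the 37, against 2.93% of all named genes. *Ifi204*, a DNA sensor of the IFI200 family, had the largest excess in that list (2.56), and *Nlrc5*, which drives MHC class I genes, followed (2.05). The immunoproteasome gene *Psmb8* and the peptide transporter gene *Tap1* had an excess of 1.26 and 1.22.

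Of the 37, limma called 0 in *Atm-/-* veh against WT veh, where 0.0538% of all named genes were called. In *Atm-/-* NR against *Atm-/-* veh it called 3, all lower, where 11.5% of all named genes were called. In the first comparison the largest changes were those of *Oas1g*, at 1.57 (SE 0.59, limma adjusted p = 0.269), and *Gbp6*, at 0.82 (SE 0.27, limma adjusted p = 0.230). *Ly6e*, which restricts virus entry, changed by -0.60 (SE 0.13, limma adjusted p = 0.0153) and read 13.61, 13.49, 13.55 and 13.44 in *Atm-/-* veh, and 12.95, 12.82, 12.95 and 12.97 in *Atm-/-* NR. All 4 NR values lay below all 4 veh values, and *Atm-/-* veh 3 was not the highest of them. Without that array the change was -0.59 and still called (adjusted p = 0.0327). *Adar*, a negative regulator whose product edits the cell's own RNA and limits its sensing, changed by -0.45 (SE 0.093, limma adjusted p = 0.0146), and without the array by -0.44 (adjusted p = 0.0305). The changes of *Gbp6*, at -0.95 (SE 0.27, limma adjusted p = 0.0433), and *Ifi30*, at -0.46 (SE 0.12, limma adjusted p = 0.0298), were no longer called without it (adjusted p = 0.0853 and 0.0623).

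Single probes gave very high values on 1 array. The dimmer *Irf7* probe read 11.70 on WT NR 4, while the brighter one read 11.35 there. *Trim34a*, a gene outside the 38, read 16.51 on WT NR 4 and 7.46 to 8.85 on the other 15 arrays, while its other probe read 6.64 on WT NR 4.

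Among 62 measured genes of 9 cell type lists, 2 were called in *Atm-/-* NR against *Atm-/-* veh, where 11.5% of all named genes were called. *Pdgfrb* of vessel mural cells changed by -0.45 (SE 0.10, limma adjusted p = 0.0188) and *Car8* of Purkinje cells by 1.10 (SE 0.31, limma adjusted p = 0.0417). In *Atm-/-* veh against WT veh none was called, where 0.0538% of all named genes were. The 2 largest changes in each list there included those of *Itgam* of microglia, at 0.50 (SE 0.20, limma adjusted p = 0.286), *Cx3cr1* of microglia, at -0.39 (SE 0.21, limma adjusted p = 0.400), and *Slc4a1* of red blood cells, at 0.70 (SE 0.48, limma adjusted p = 0.518). Without *Atm-/-* veh 3 that of *Slc4a1* was 0.018 and that of *Itgam* 0.50.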
